A study of Mus musculus with 16 samples.

Results

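The genes described here are 32 genes of sterol and fatty acid synthesis and their SREBP regulators, selected by gene symbol from the 55385 rows of the count table. They were followed in RNA of CD11b+ cells, isolated on magnetic columns from brains of 20-week-old female mice, in 16 libraries of 4 genotypes with 4 libraries each. CD11b is a surface protein of microglia, the resident macrophages of the brain, and of other myeloid cells, and the meninges and choroid plexus had been taken off before the sort. The WT mice carried neither the 5xFAD transgenes nor a Card9 deletion. Card9-/- mice lacked CARD9, a signaling adaptor downstream of C-type lectin receptors, from the germ line and in every cell. 5xFAD mice carried human transgenes, APP among them, with mutations of familial Alzheimer's disease, which the neuronal Thy1 promoter drives, and accumulate amyloid in the brain, so microglia of these mice respond to a product of neurons. Card9-/- 5xFAD mice carried both the transgenes and the deletion.

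Cholesterol is built from acetyl-CoA through mevalonate, farnesyl diphosphate, squalene and lanosterol, and fatty acids are built from malonyl-CoA, elongated and then desaturated. SREBP transcription factors, held in the endoplasmic reticulum by INSIG proteins and carried to the Golgi by SCAP when sterols are scarce, switch on genes of both pathways, while LXR factors respond to sterol excess. In the brain most cholesterol is made locally, oligodendrocytes make much of it for myelin, and microglia that take up myelin or dying cells receive sterol from outside.

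Promoters that SREBP binds classically pair a sterol regulatory element with CCAAT and GC boxes. Windows from 250 bases before to 50 bases after the annotated start were taken from RefSeq on GRCm38.p6 and searched on both strands, where 25 of the 32 genes had an entry. The letters CCAAT stood in windows of 20 of these 25 genes (80%) and of 41.1% of all 27025 genes with an entry, and GGGCGG stood in 21 of 25 (84%) against 38.2%. The E-box CACGTG stood in 5 of 25 (20%) against 8.09%, and the sterol regulatory element form TCACNCCAC in 1 of 25 (4%), Hmgcs1, against 1.44%. The 27025 genes were not limited to those expressed here, so whether these shares are particular to sterol genes was not tested. The bases before the start are shown for the 3 genes that rose with the transgenes and had an entry, Acaca, Pmvk and Dhcr7, and for Hmgcs1 as the promoter that held the sterol regulatory element. Capitals mark the motif matches, reverse complements included, and all 4 genes lie on the plus strand.
Acaca, chr11:84195188-84195437: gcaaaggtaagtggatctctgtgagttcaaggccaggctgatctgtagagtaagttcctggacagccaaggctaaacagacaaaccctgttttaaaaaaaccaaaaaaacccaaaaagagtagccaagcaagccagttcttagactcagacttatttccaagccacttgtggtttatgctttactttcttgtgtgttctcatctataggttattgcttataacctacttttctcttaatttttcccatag
Pmvk, chr3:89454291-89454540: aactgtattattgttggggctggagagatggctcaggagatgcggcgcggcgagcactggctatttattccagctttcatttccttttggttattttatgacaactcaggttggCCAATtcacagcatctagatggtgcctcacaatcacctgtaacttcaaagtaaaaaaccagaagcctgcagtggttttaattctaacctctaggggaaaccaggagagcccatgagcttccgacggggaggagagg
Dhcr7, chr7:143822917-143823144: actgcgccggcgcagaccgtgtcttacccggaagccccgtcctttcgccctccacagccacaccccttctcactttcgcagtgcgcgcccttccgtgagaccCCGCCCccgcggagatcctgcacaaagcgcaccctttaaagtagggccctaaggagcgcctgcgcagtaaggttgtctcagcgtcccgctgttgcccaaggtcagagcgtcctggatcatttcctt
Hmgcs1, chr13:119690101-119690350: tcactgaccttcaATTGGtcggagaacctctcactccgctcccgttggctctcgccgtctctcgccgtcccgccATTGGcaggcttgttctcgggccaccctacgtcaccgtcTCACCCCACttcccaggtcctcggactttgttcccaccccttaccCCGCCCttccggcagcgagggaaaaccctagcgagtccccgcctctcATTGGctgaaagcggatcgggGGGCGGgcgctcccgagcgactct
The Acaca window lies before an annotated start inside the gene's span and held no match to any of the 4 motifs. It is the 1 window listed for Acaca, whose span begins at 84129672, so the bases before that first position were not searched. Acaca counts among the 25 by this inner window alone, so the lack of matches does not describe the start of the gene's span. The Pmvk stretch held 1 CCAAT box. The Dhcr7 stretch, which stops 22 bases short of the start where an annotated exon begins, held 1 GC box on the reverse strand. Each stretch lies at the first start listed for the gene. Pmvk has a 2nd window, with 0 matches, and Dhcr7 has 2 more, 1 with 1 E-box and the other, at chr7:143829964-143830263, with 2 CCAAT and 3 GC boxes. The Hmgcs1 stretch held 6 matches, with the sterol regulatory element starting 137 bases before the start. A match is a description of the letters in these windows, and binding was not measured.

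The libraries held 2970148 to 19333325 counts on genes (median 7944265), and 3 of them stood below the rest, Card9-/- 5xFAD replicate 4 (2970148), Card9-/- replicate 4 (3229322) and WT replicate 1 (5346747), with the next library at 6081583. Levels are given as CPM, counts scaled to the TMM-normalized library size. Microglial markers were high in every library (10 genes summing to between 13513 and 34618 CPM). The transgene labels were checked with Cst7, a cathepsin inhibitor of amyloid-responsive microglia, at 15.7 to 51.6 CPM in the 8 libraries without transgenes and 1616 to 4417 CPM in the 8 with them. Card9 itself, counted over the whole gene, lay at 13.6 to 51.3 CPM in WT, 16.7 to 34.8 in Card9-/-, 15.6 to 33.5 in 5xFAD and 9.73 to 33.7 in Card9-/- 5xFAD, so the Card9 genotypes rest on their labels. The part of Card9 that was deleted was not looked up here, and counts outside it would check nothing. Summed markers of oligodendrocytes, which make much cholesterol for myelin, lay at 242 to 948 CPM in WT, 323 to 469 in Card9-/-, 195 to 841 in 5xFAD and 250 to 419 in Card9-/- 5xFAD. In the contrast of transgenes averaged over both Card9 genotypes, 0 of 7 tested oligodendrocyte markers passed the edgeR test at a false discovery rate (FDR) of 0.1. In it 4 of 5 markers of border-associated macrophages fell (Mrc1 fell by 1.24 on the log2 scale, FDR = 0.000942). Of 9 astrocyte markers, 2 rose, Gfap (3.57) and Aqp4 (1.07), and 0 fell. Of the same 9, 5 lay above 0 and 4 below, the lowest at -1.44. In the same contrast 1 of 6 endothelial markers (Pecam1, -1.31, FDR = 0.00349), 1 of 4 monocyte markers (Ccr2, -1.31, FDR = 0.0164) and 2 of 12 early response genes (Nr4a1, -1.38, FDR = 0.0346, and Hspa1a, -0.80, FDR = 0.0807), which cell isolation can induce, also fell. Choroid plexus markers were still counted, at summed levels of 17.5 to 1727 CPM in WT and 90.8 to 3001 in Card9-/-. In 5xFAD their sum ran from 294 to 1464 CPM and in Card9-/- 5xFAD from 3.16 to 1204. Of these 4 markers, 0 passed in the averaged contrast. With early response genes as a covariate 7 members were called in the averaged contrast (11.2% of all genes). The part of the astrocyte, endothelial, monocyte, choroid plexus and border-associated macrophage markers in the results below was not tested.

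Per kilobase of exon, the members spanned a wide range of levels. Ebp, the sterol isomerase, was highest at 72.5 ± 28.5 CPM per kb (SD over all 16 libraries) and Mylip, a ubiquitin ligase that limits lipoprotein uptake, followed at 51.7 ± 12.6, at percentiles 93.0 and 90.7 of the genes tested. Pmvk (19.7 ± 10.6), Fads1 (17.02 ± 7.44), Scd2 (16.8 ± 7.64), Msmo1 (14.2 ± 5.98) and Insig2 (13.8 ± 3.60) came next and did not differ from their neighbours beyond the spread over libraries. Acaca and Fasn, the 2 enzymes that commit carbon to fatty acids, were low at 1.16 ± 0.930 and 1.13 ± 0.449 CPM per kb. Scd1 (0.324 ± 0.211), Elovl6 (0.259 ± 0.114) and Fdps (0.203 ± 0.133) were lowest. Fdps, farnesyl diphosphate synthase, had 0 to 23 counts in a library and was the 1 member that did not pass the filter on low counts, and 4 processed pseudogenes and the overlapping Gm43738 match it at 96.1% to 100% identity, so its level is uncertain. The other 31 members were tested.

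**Figure D1:**
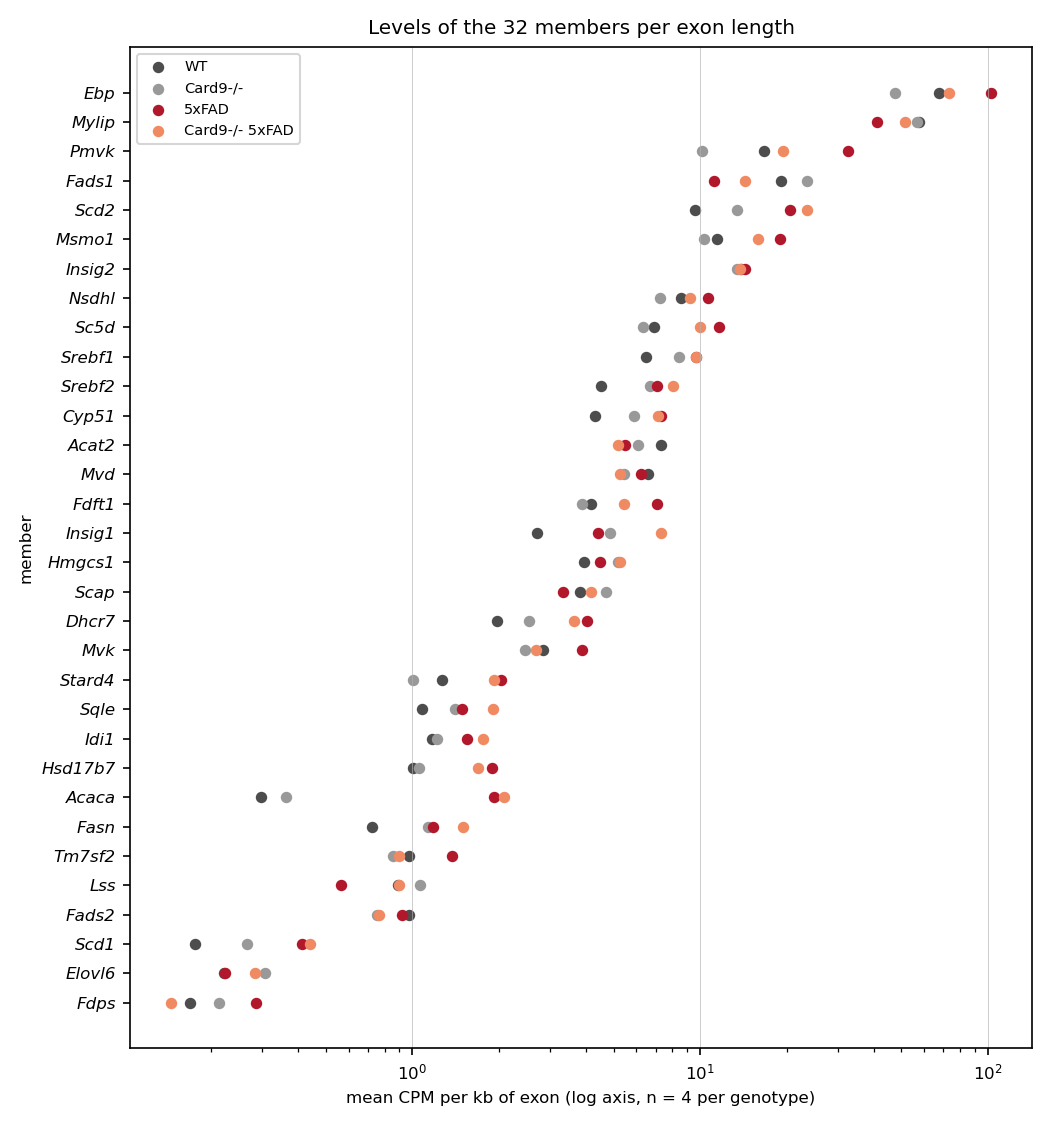
Mean CPM per kb of exon (log axis) of each of the 32 members in the 4 genotypes, 4 libraries each, ordered by level. Ebp and Mylip stand at the top, Scd1, Elovl6 and Fdps at the bottom, and Acaca shows the widest gap between the genotypes with transgenes and those without.

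The first question was how these genes stood in microglia of mice with amyloid. Acaca, acetyl-CoA carboxylase 1, rose 6.47-fold with the 5xFAD transgenes where Card9 was intact and 5.71-fold in Card9-/- mice, and no member fell. Scd2, Pmvk, Stard4 and Dhcr7 rose when the transgenes were tested over both Card9 genotypes together. Most of the other members, above all those from squalene to cholesterol, lay higher with the transgenes by amounts that did not pass the test. In 5xFAD against WT, 1 of 31 members passed at FDR 0.1, Acaca, while 2.09% of all 14513 genes tested passed (1.57% higher, 0.524% lower). The fold change was above 0 for 24 of 31 members and for 38.9% of all genes, and the median log2 fold change was 0.58 for the members and -0.15 for all genes. At an unadjusted p under 0.05, 6 members were higher and 0 lower, beside 5.12% and 5.72% of all genes. In Card9-/- 5xFAD against Card9-/-, again 1 of 31 passed, Acaca, with 1.97% of all genes (1.49% higher, 0.482% lower), 24 of 31 were above 0 with 39.4% of all genes, and the medians were 0.34 and -0.15. At an unadjusted p under 0.05, 4 members were higher and 0 lower, beside 6.49% and 5.72% of all genes. These 2 contrasts share no library. Of the 31 members, 23 (74.2%) lay above 0 in both and 6 (19.4%) below 0 in both, while of all genes 29.9% lay above 0 in both and 51.6% below 0 in both.

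**Figure D2:**
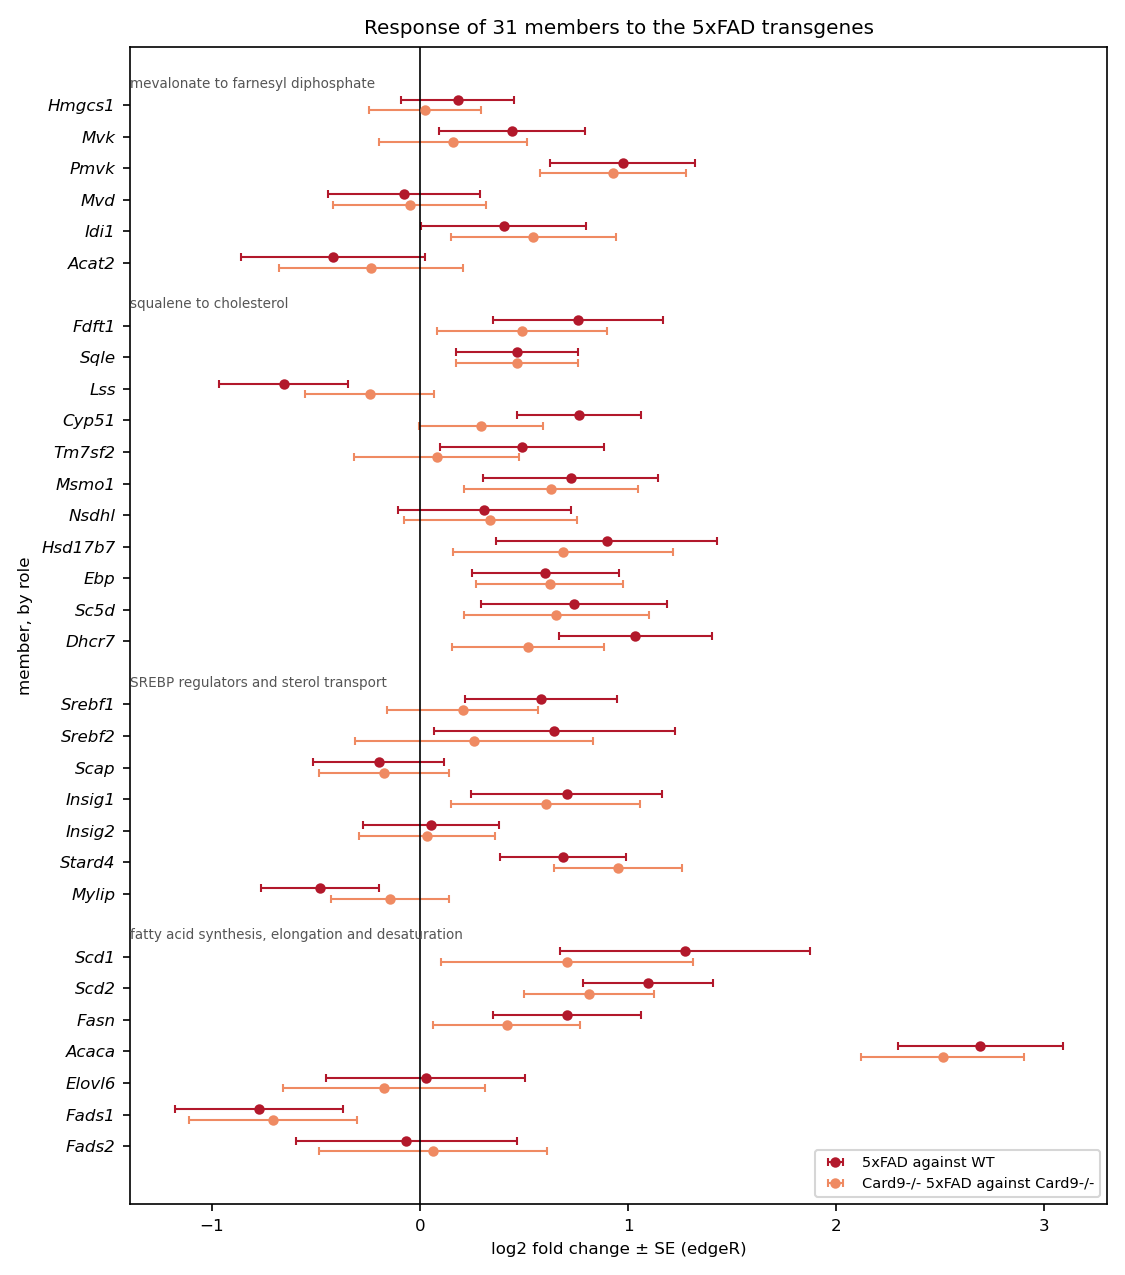
Log2 fold change ± SE (edgeR, 4 libraries per genotype) of the 31 tested members, in order of role, for 5xFAD against WT and for Card9-/- 5xFAD against Card9-/-. Acaca lies at 2.69 and 2.51, 10 of the 11 members from squalene to cholesterol lie to the right of 0 in each contrast, and Fads1 and Lss lie to the left in both.

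Averaged over both Card9 genotypes, with 8 libraries on each side, 5 of 31 members rose and 0 fell, while 5.62% of all genes rose and 5.73% fell (11.3% in all). The median log2 fold change of the members was 0.47, with 23 of 31 above 0, beside -0.15 for all genes, of which 38.3% were above 0. At an unadjusted p under 0.05, 13 members were higher and 1 lower, against 9.87% and 13% of all genes. In 5xFAD against WT, the ranges of the 4 libraries did not overlap for 8 members, Pmvk, Fdft1, Sqle, Cyp51, Tm7sf2, Dhcr7, Scd2 and Acaca, all of them higher with the transgenes and 0 lower, while 4.35% of all genes were higher and 3.69% lower without overlap (8.04% in either direction). In Card9-/- 5xFAD against Card9-/-, this held for 2 members, Stard4 and Acaca, both higher, and for 3.53% of all genes higher and 3.48% lower (7.01% in either direction). Over all 8 libraries with transgenes against all 8 without, it held for 1 member, Acaca, and for 1.19% of all genes.

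Among the 7 genes of fatty acid synthesis, elongation and desaturation, 2 rose in the averaged contrast, Acaca and Scd2, 4 lay above 0, and the median was 0.56. Acaca makes malonyl-CoA, the first committed step, and lies at chr11:84129672-84401651 of GRCm38 on the plus strand. It stood at 8.80, 1.97, 3.75 and 5.88 CPM in WT replicates 1 to 4, at 6.12, 7.32, 4.56 and 6.87 in Card9-/-, at 49.1, 30.7, 27.7 and 23.2 in 5xFAD and at 39.2, 28.98, 31.8 and 42.05 in Card9-/- 5xFAD. Every library with transgenes was above every library without them, at 23.2 CPM and above against 8.80 and below. The log2 fold change was 2.69 (SE 0.39, FDR = 0.00136) in 5xFAD against WT and 2.51 (SE 0.39, FDR = 0.0023) in Card9-/- 5xFAD against Card9-/-, and 2.60 (SE 0.28, FDR = 1.85e-05) averaged over both. Leaving out each library in turn moved the averaged value between 2.46 and 2.84. The processed pseudogene Gm5182 matches 6118 of the 9513 bases of the compared Acaca transcript at 99.2% identity and was itself counted at 0 to 21 reads a library.

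Scd2, the stearoyl-CoA desaturase best known from brain, stood at 54.6, 48.3, 36.7 and 70.8 CPM in WT, at 84.3, 74.2, 73.6 and 60.2 in Card9-/-, at 104, 92.7, 110.1 and 143 in 5xFAD and at 193, 153, 68.8 and 98.1 in Card9-/- 5xFAD. All 5xFAD libraries were above all WT libraries, while replicate 3 of Card9-/- 5xFAD lay within the Card9-/- range. Its log2 fold change was 1.10 (SE 0.31, FDR = 0.124) in 5xFAD against WT, 0.81 (SE 0.31, FDR = 0.273) in Card9-/- 5xFAD against Card9-/- and 0.95 (SE 0.22, FDR = 0.0161) averaged. Scd1, a near copy over 623 bases (95.5% identity), was counted at only 4 to 17 reads a library and had an averaged log2 difference of 0.99 (SE 0.43, FDR = 0.177). Fasn, the fatty acid synthase that extends the malonyl-CoA made by Acaca, was at 7.92 ± 2.38 CPM in WT and 12.9 ± 3.82 in 5xFAD (SD, n = 4), and at 12.4 ± 3.57 in Card9-/- and 16.4 ± 6.27 in Card9-/- 5xFAD. Its averaged log2 difference of 0.56 (SE 0.25, FDR = 0.191) did not pass the test. The desaturase Fads1, which acts on polyunsaturated fatty acids, was the member with the lowest averaged value, -0.74 (SE 0.29, FDR = 0.132). It stood at 64.6, 124, 65.7 and 114 CPM in WT, at 95.3, 137, 138 and 81.1 in Card9-/-, at 40.3, 40.03, 36.5 and 98.3 in 5xFAD and at 90.98, 101, 35.5 and 48.1 in Card9-/- 5xFAD. In 5xFAD, 3 libraries were below every WT library and replicate 4 was within the WT range, and in Card9-/- 5xFAD replicates 3 and 4 were below every Card9-/- library. Elovl6, an elongase (-0.07, SE 0.34), and Fads2, a desaturase (-0.001, SE 0.47), were close to 0, and both turned sign under at least 1 other setting.

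**Figure D3:**
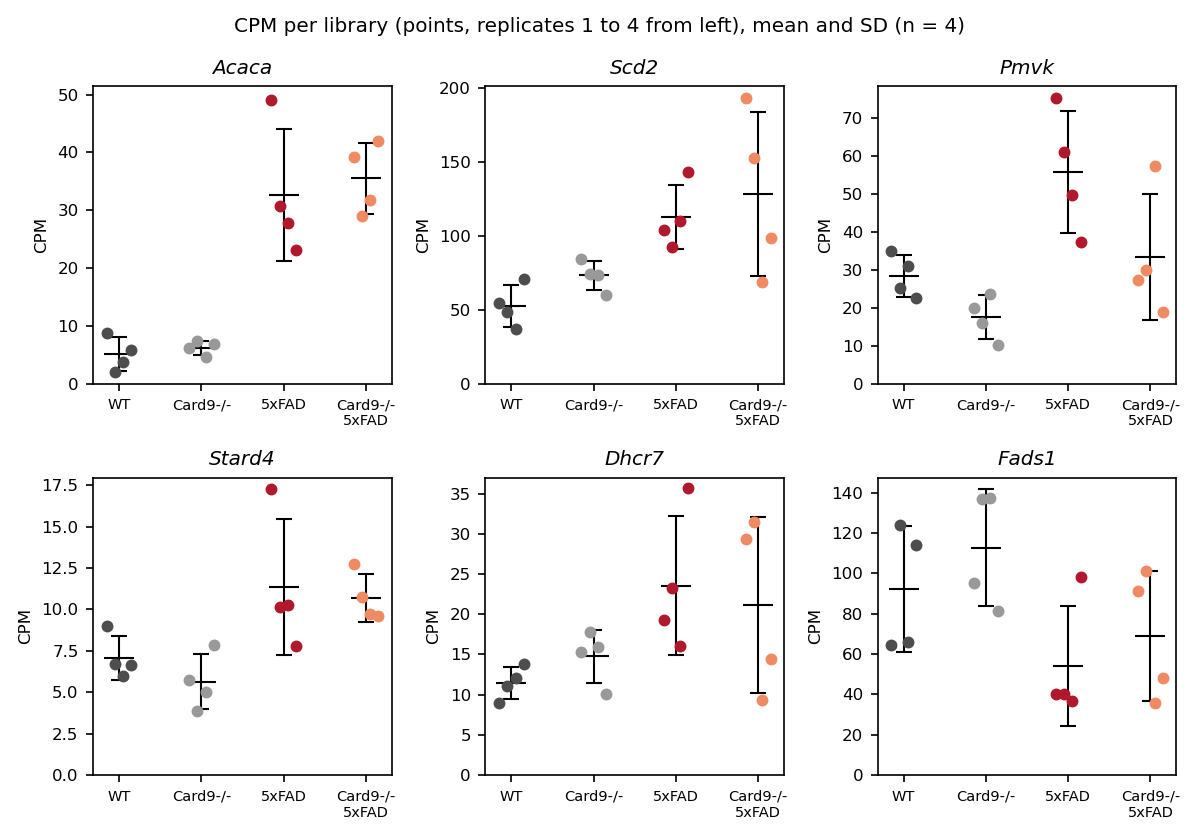
CPM (linear axis from 0) of Acaca, Scd2, Pmvk, Stard4, Dhcr7 and Fads1 in each library, with the mean and SD of the 4 libraries of each genotype. Acaca separates the libraries with transgenes, at 23.2 CPM and above, from those without, at 8.80 CPM and below, while in the other panels the groups with and without transgenes overlap over all libraries.

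From acetyl-CoA to farnesyl diphosphate, 1 of 6 tested members rose in the averaged contrast, Pmvk, 4 lay above 0, and the median was 0.20. Pmvk, phosphomevalonate kinase, stood at 34.9, 25.1, 31.1 and 22.7 CPM in WT, at 19.9, 15.97, 23.7 and 10.1 in Card9-/-, at 75.2, 61.00, 49.6 and 37.5 in 5xFAD and at 27.2, 29.9, 57.3 and 18.8 in Card9-/- 5xFAD. All 5xFAD libraries were above all WT libraries, but replicate 4 of Card9-/- 5xFAD lay below 2 of the Card9-/- libraries. The log2 fold change was 0.97 (SE 0.35, FDR = 0.266) in 5xFAD against WT, 0.93 (SE 0.35, FDR = 0.262) in Card9-/- 5xFAD against Card9-/- and 0.95 (SE 0.25, FDR = 0.0306) averaged. The enzymes before and after it did not pass the test. Hmgcs1, which makes HMG-CoA, was at 18.1 ± 1.78 CPM in WT and 20.5 ± 3.49 in 5xFAD (SD, n = 4), and at 23.8 ± 1.66 in Card9-/- and 24.1 ± 9.68 in Card9-/- 5xFAD, an averaged log2 difference of 0.10 (SE 0.19). Mvk (0.30, SE 0.25), Idi1 (0.47, SE 0.28) and Mvd (-0.06, SE 0.26), which phosphorylate, isomerize and decarboxylate the intermediates, and Acat2 (-0.33, SE 0.31), a cytosolic thiolase, did not pass either. The signs of Hmgcs1, Mvd and Acat2 turned under at least 1 other setting. Acat2 shares 1477 bases at 97.7% identity with Acat3, and Idi1 shares 684 bases at 100% with the pseudogene Gm13502, so counts of these 2 genes are uncertain.

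From squalene to cholesterol, 1 of 11 members rose in the averaged contrast, Dhcr7, 10 of 11 lay above 0 in it and in each single transgene contrast, and the medians were 0.61 averaged, 0.72 in 5xFAD against WT and 0.49 in Card9-/- 5xFAD against Card9-/-. Dhcr7, which makes the last reduction to cholesterol, stood at 8.98, 11.1, 12.02 and 13.8 CPM in WT, at 15.3, 17.7, 15.9 and 10.1 in Card9-/-, at 19.3, 23.3, 16.01 and 35.7 in 5xFAD and at 29.3, 31.5, 9.38 and 14.4 in Card9-/- 5xFAD. The ranges were apart between 5xFAD and WT only, with Card9-/- 5xFAD libraries on both sides of the Card9-/- range. The averaged log2 fold change was 0.78 (SE 0.26, FDR = 0.0848), and the call was lost when any 1 of 11 of the 16 libraries was left out, with values of 0.65 to 0.90.

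The other enzymes of this stretch did not pass the averaged test. Cyp51, the lanosterol demethylase, stood at 16.2, 22.5, 18.9 and 18.4 CPM in WT, at 22.3, 20.97, 21.99 and 38.3 in Card9-/-, at 29.1, 32.4, 32.2 and 35.5 in 5xFAD and at 38.6, 43.8, 15.6 and 28.03 in Card9-/- 5xFAD. Its ranges were apart between 5xFAD and WT (0.77, SE 0.30, FDR = 0.337) and overlapped between Card9-/- 5xFAD and Card9-/- (0.29, SE 0.30). Msmo1, which removes the next methyl groups, stood at 25.7, 99.3, 87.9 and 68.9 CPM in WT, at 66.2, 64.2, 82.03 and 40.2 in Card9-/-, at 68.6, 143, 150.2 and 105 in 5xFAD and at 125, 127, 98.01 and 42.05 in Card9-/- 5xFAD. The lowest library of every genotype was more than 1 SD below the mean of its group, and the averaged difference was 0.68 (SE 0.30, FDR = 0.182). Sqle, squalene epoxidase and a rate-limiting enzyme of the pathway, ranged from 5.56 to 6.21 CPM in WT and from 7.55 to 9.60 in 5xFAD, and from 5.64 to 12.8 in Card9-/- and 8.17 to 12.7 in Card9-/- 5xFAD. Its log2 difference was 0.47 (SE 0.29) in each single transgene contrast. Fdft1, squalene synthase, ranged from 8.27 to 24.2 CPM in WT and from 24.4 to 36.0 in 5xFAD. In Card9-/- it ranged from 10.8 to 20.3 and in Card9-/- 5xFAD from 6.41 to 32.7, which overlap. Its averaged difference was 0.62 (SE 0.29, FDR = 0.21). The exons of Fdft1 overlap 774 bases of Ctsb, a cathepsin gene on the opposite strand, and with the strand setting of the counting unknown, reads from that overlap cannot be told apart. Ebp (0.61, SE 0.25), Sc5d (0.70, SE 0.32), Hsd17b7 (0.79, SE 0.38), Nsdhl (0.32, SE 0.29) and Tm7sf2 (0.29, SE 0.28), which demethylate, reduce, isomerize and desaturate the sterol ring, lay above 0 in both single contrasts. Tm7sf2 shares 532 exon bases with Vps51 on the same strand. Lss, which closes squalene into lanosterol, was the exception. It stood at 7.57, 10.1, 9.93 and 10.8 CPM in WT, at 10.6, 13.5, 10.3 and 11.4 in Card9-/-, at 6.37, 4.25, 4.50 and 9.26 in 5xFAD and at 9.67, 11.9, 5.73 and 11.6 in Card9-/- 5xFAD, an averaged difference of -0.45 (SE 0.22, FDR = 0.235). Markers of oligodendrocytes had a median averaged log2 difference of -0.47 over the 7 tested, all of them below 0, and 2 of the 7 lay above 0 in 5xFAD against WT. Their summed level had a median of 621 CPM in 5xFAD and 458 in WT, and of 287 in Card9-/- 5xFAD and 429 in Card9-/-. With the oligodendrocyte level of each library as a covariate, Acaca was the 1 member still called in the averaged contrast (8.64% of all genes), while the median of the members was 0.43, and the 4 others stood at 0.75 (Scd2), 0.79 (Pmvk), 0.69 (Stard4) and 0.55 (Dhcr7). The part of these cells in the result was not tested further.

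Of the 7 regulators and sterol transporters, 1 rose in the averaged contrast, Stard4, 5 lay above 0, and the median was 0.39. Stard4, a carrier that moves cholesterol between membranes, stood at 8.98, 6.68, 5.96 and 6.63 CPM in WT, at 5.76, 3.89, 5.04 and 7.85 in Card9-/-, at 17.3, 10.1, 10.3 and 7.76 in 5xFAD and at 12.7, 10.7, 9.73 and 9.61 in Card9-/- 5xFAD. Here the ranges were apart between Card9-/- 5xFAD and Card9-/-, and 5xFAD replicate 4 overlapped the WT range. The log2 fold change was 0.69 (SE 0.30, FDR = 0.42) in 5xFAD against WT, 0.95 (SE 0.31, FDR = 0.18) in Card9-/- 5xFAD against Card9-/- and 0.82 (SE 0.22, FDR = 0.0329) averaged. Srebf2, which encodes the SREBP of the cholesterol pathway, stood at 14.6, 34.1, 31.7 and 49.00 CPM in WT, at 72.7, 54.5, 47.4 and 18.3 in Card9-/-, at 23.1, 45.8, 32.4 and 102 in 5xFAD and at 101, 83.6, 21.5 and 24.03 in Card9-/- 5xFAD. Its ranges overlapped in both transgene contrasts, and the averaged difference was 0.45 (SE 0.41, FDR = 0.539). Insig1, the sterol-responsive anchor of SREBP, stood at 4.58, 10.7, 5.85 and 12.3 CPM in WT, at 10.9, 15.4, 12.6 and 20.9 in Card9-/-, at 10.3, 9.18, 10.97 and 24.2 in 5xFAD and at 34.04, 30.5, 7.99 and 17.6 in Card9-/- 5xFAD, an averaged difference of 0.65 (SE 0.32, FDR = 0.239). Srebf1, the SREBP of fatty acid synthesis, differed by 0.39 (SE 0.26) and Insig2, the other SREBP anchor, by 0.04 (SE 0.23), with a sign that turned under at least 1 other setting. Scap (-0.19, SE 0.22) and Mylip (-0.31, SE 0.20), an LXR target, lay below 0 in both transgene contrasts and did not pass. Among the 8 libraries with transgenes, 5xFAD replicate 4 and Card9-/- 5xFAD replicates 1 and 2 held the 3 highest levels of 11 of the 31 members (35.5%) and of 23.1% of all genes. These were Scd2 and Dhcr7, both called above, and Srebf1, Srebf2, Insig1, Scap, Fasn, Fads1, Cyp51, Hmgcs1 and Acat2. In the same 3 libraries the slope of a gene's level on its length, in log2 units per doubling of length, was above 0 (0.07, 0.14 and 0.12), and in the other 5 it lay between -0.22 and -0.12. With this slope as a covariate, chosen after the data were seen, 14 members were called (24.5% of all genes), Srebf2 (1.02, FDR = 0.001) and Srebf1 (0.67, FDR = 0.0204) among them.

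The share of a member's variance that lay within genotypes had a median of 72.0%, beside 79.2% for all genes, and ran from 10.8% for Acaca to 97.7% for Insig2. The 3 libraries of fewest counts were low in most sterol enzymes. WT replicate 1 was the lowest WT library for 10 of the 11 members from squalene to cholesterol, Card9-/- replicate 4 the lowest of its genotype for 8, and Card9-/- 5xFAD replicate 4 for 7, while 39.6%, 45.0% and 32.4% of all genes were lowest there. Summed over these 11 members, the levels were 214 CPM in WT replicate 1 and 338 to 461 in the other WT libraries, 211 in Card9-/- replicate 4 and 296 to 390 in the others of that genotype, and 231 in Card9-/- 5xFAD replicate 4 and 515 to 535 in the others. The same 3 libraries held the highest sums of border-associated macrophage markers (1112, 1585 and 1418 CPM) and of endothelial markers (180, 268 and 119 CPM) of their genotypes. They also held the highest sums of choroid plexus markers (1727, 3001 and 1204 CPM) and the lowest of microglial markers (14041, 15447 and 13513 CPM). A 4th library, 5xFAD replicate 1, was as low in microglial markers (14659 CPM), and its sum over the 11 sterol enzymes, 510 CPM, lay within the 493 to 634 of the other 5xFAD libraries. Ebp alone gave 288 CPM of that sum, beside 175 to 263 CPM in the other 5xFAD libraries. Of the 11 members, 6 were lowest of their genotype in this library and 1 was highest, while 31.5% of all genes were lowest there. In bulk RNA, fewer cells of a type and less RNA per cell cannot be told apart. Without these 3 libraries, a choice made after the data were seen, 5 of 32 members were called in 5xFAD against WT (12.9% of all genes), 3 in Card9-/- 5xFAD against Card9-/- (10.3%) and 15 in the averaged contrast (33%). Of those 15, 14 rose, namely the 5 above and Cyp51, Fdft1, Sqle, Hsd17b7, Ebp, Msmo1, Sc5d, Fasn and Scd1, and Fads1 fell by 0.78 on the log2 scale (FDR = 0.0655). Acaca was called in all 3 contrasts with and without the 3 libraries.

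**Figure D4:**
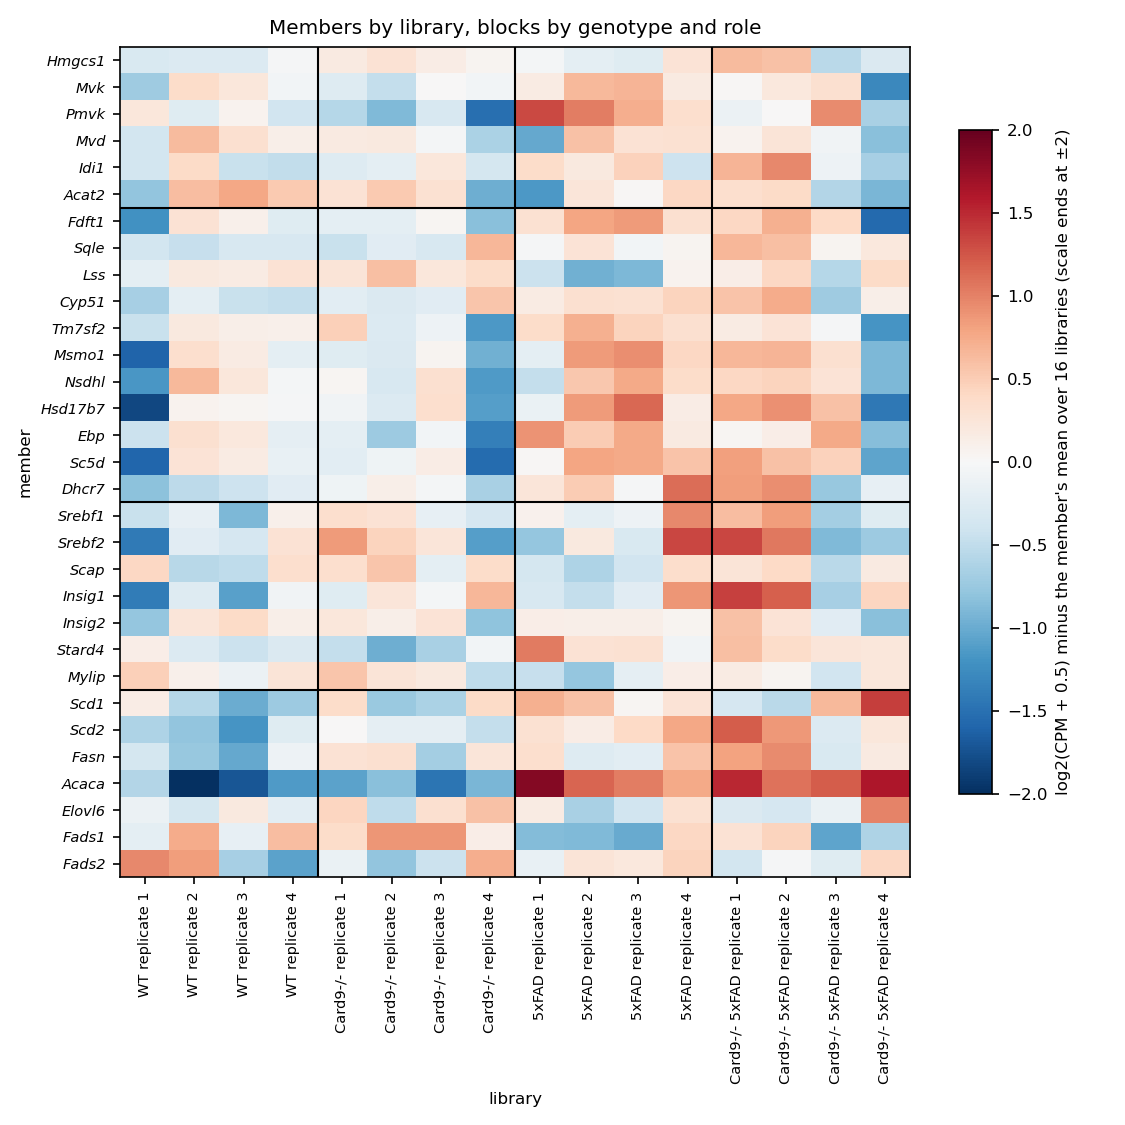
Color gives log2(CPM + 0.5) of each of the 31 tested members in each of the 16 libraries, less the member's mean over the libraries, with the scale ending at ±2, and blocks mark genotypes and roles. The Acaca row splits the libraries by transgene, and most sterol enzymes are low in WT replicate 1, Card9-/- replicate 4 and Card9-/- 5xFAD replicate 4.

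Other genes of the supply, uptake and control of sterols and fatty acids were read from a list of 28, of which 26 were tested. In the averaged contrast 3 rose and 1 fell, beside the 5.62% and 5.73% of all genes given above, 15 lay above 0, and the median was 0.03. Npc2, which hands cholesterol out of the lysosome, ranged from 592 to 806 CPM in WT, 366 to 781 in Card9-/-, 1305 to 1976 in 5xFAD and 1189 to 1699 in Card9-/- 5xFAD, with no overlap between libraries with and without transgenes (1.28, SE 0.20, FDR = 0.000766). Hacd2, a dehydratase of very-long-chain fatty acid elongation, ranged from 65.0 to 106 CPM in WT and 215 to 378 in 5xFAD, and from 25.8 to 70.6 in Card9-/- and 103 to 292 in Card9-/- 5xFAD (1.85, SE 0.25, FDR = 0.000251). Both also rose in each single transgene contrast. The acyl-CoA synthetase gene Acsl3 fell (-0.50, SE 0.17, FDR = 0.0848) in the averaged contrast, and Tecr, the reductase that ends an elongation cycle, did not pass (0.65, SE 0.27, FDR = 0.154). Of 12 genes of LXR response, efflux and lipid storage, 4 rose, Lpl (4.36, SE 0.23, FDR = 7.31e-09), Ch25h (5.07, SE 0.41, FDR = 1.18e-06), Apoe (1.53, SE 0.24, FDR = 0.000822) and Plin2 (0.83, SE 0.27, FDR = 0.0782), and the median was 0.33. The sterol exporters Abca1 (-0.41, SE 0.19) and Abcg1 (0.20, SE 0.30) did not pass. Ch25h makes 25-hydroxycholesterol, an oxysterol that restrains SREBP processing, and ranged from 1.49 to 5.23 CPM without transgenes and from 24.8 to 188 with them.

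The second question was whether these genes differed with Card9. In the libraries labelled Card9-/- 5xFAD against those labelled 5xFAD, 0 of 31 members and 0% of all genes passed at FDR 0.1 in edgeR. DESeq2 on all 16 libraries called 0 members and 0.00675% of 29625 genes. At an unadjusted p under 0.05, Lss (0.67, SE 0.31) was higher and Pmvk (-0.74, SE 0.35) lower, beside 2.52% of all genes (1.1% higher, 1.43% lower), and both had an FDR of 0.993. The median of the members was -0.03, with 13 of 31 above 0 and 62% of all genes above 0. All 12 early response genes, which cell isolation can induce, lay above 0 in this contrast (median 0.79), and 0 of them passed. With their level as a covariate the median of the members was -0.29, with 0 called. Their part in this contrast was not tested. Tm7sf2 was the 1 member whose ranges did not overlap, at 5.45 to 7.27 CPM in 5xFAD and 1.60 to 5.25 in Card9-/- 5xFAD, while 1.89% of all genes did not overlap (0.923% lower). In the libraries labelled Card9-/- against WT, 0 members and 0% of all genes passed, and 0 members and 4.11% of all genes (1.37% higher, 2.74% lower) had an unadjusted p under 0.05. DESeq2 called 0 members and 0.0169% of all genes. The median was 0.08, with 17 of 31 and 59.5% of all genes above 0, and Hmgcs1 was the 1 member without overlap, at 16.9 to 20.8 CPM in WT and 21.9 to 25.9 in Card9-/-, with 2.66% of all genes (1.06% higher). Averaged with and without transgenes, 0 members and 0.0276% of all genes (4 genes) passed, and 1 member was higher and 1 lower at an unadjusted p under 0.05, beside 4.07% and 5.04% of all genes (9.12% in all). These were Insig1 at 0.77 (SE 0.32) and Pmvk at -0.72 (SE 0.25), and the lowest FDR of a member was 0.496. Again all 12 early response genes lay above 0 (median 0.45) and 0 passed. With their level as a covariate the median of the members went from 0.14 to -0.15. The fits bounded many of these differences. The interval took 1.96 SE to each side, the normal value for 95%, which is somewhat too narrow for 16 libraries, so the counts are upper bounds. It lay within a 2-fold change either way for 14 of 31 members in each single contrast (32.2% and 32.7% of all genes). In the averaged contrast it did so for 25 of 31 (80.6%) and for 57.9% of all genes. The others could differ by 2-fold or more without passing at this depth and number of libraries.

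**Figure D5:**
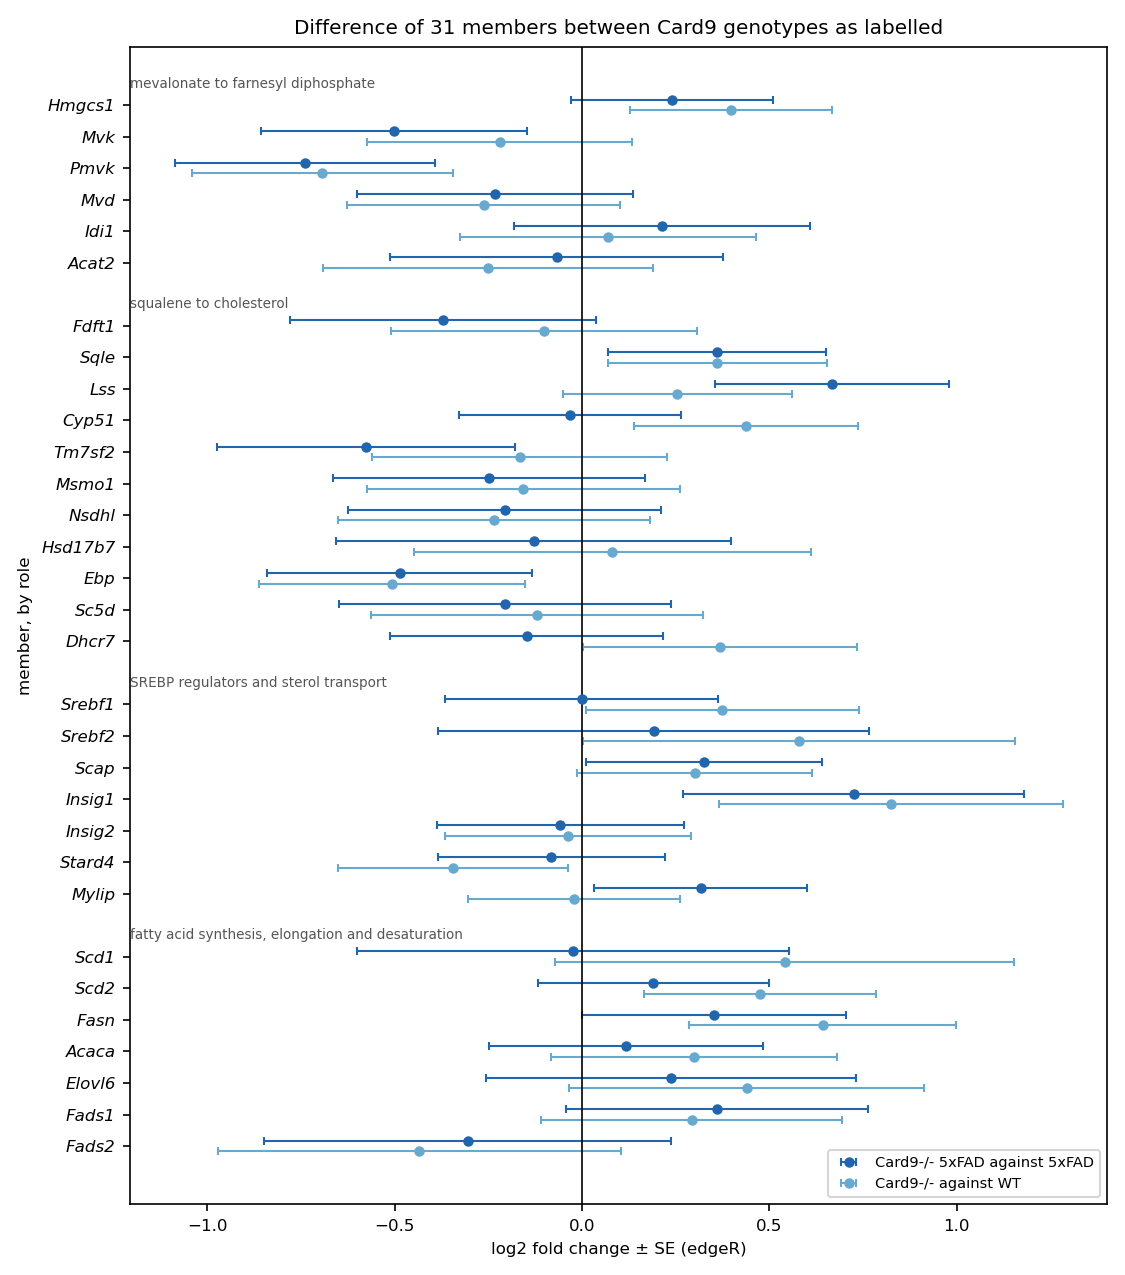
Log2 fold change ± SE (edgeR, 4 libraries per genotype) of the 31 tested members, in order of role, for Card9-/- 5xFAD against 5xFAD and for Card9-/- against WT, genotypes as labelled. Values lie on both sides of 0, from -0.74 (Pmvk) to 0.73 (Insig1) with the transgenes and from -0.69 (Pmvk) to 0.82 (Insig1) without them.

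Whether the response to the transgenes differed with Card9 was tested as an interaction. In edgeR 0 of 31 members and 0% of all genes passed, and 0 members and 0.537% of all genes had an unadjusted p under 0.05. DESeq2 called 0 members and 0.00338% of all genes. The log2 differences between the responses ran from -0.57 (Scd1) to 0.41 (Lss), with a median of -0.09. For Acaca the responses of 2.69 and 2.51 differed by -0.18 (SE 0.53). The interval lay within a 2-fold change for 5 of 31 members (16.1%) and for 16.4% of all genes, so for most members differences of that size were not detectable.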

How the data were processed

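RNA of CD11b+ brain cells was sequenced in 16 libraries, 4 per genotype. Per the labels and the study's methods, the authors aligned reads to mm10 with HISAT2, filtered them with SAMtools and deposited whole-number read counts per gene from HTSeq, without normalization. The authors tested these counts with DESeq2, and the strand setting of the counting is not given in the sources used here. Total counts ran from 2970148 to 19333325 per library (median 7944265), which limits the precision of the shallow ones. Nothing in the labels says whether a library came from 1 mouse, so the p-values measure the spread between libraries.

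The deposited counts were tested in R 4.3.3 with edgeR 4.0.16 (TMM, filterByExpr with a minimum count of 10, quasi-likelihood F test, 1 fit of all 16 libraries in 4 groups, no covariate). P-values were adjusted by Benjamini-Hochberg over all 14513 genes tested, with a threshold of 0.1, in 7 contrasts. The SE came from the fold change and its F statistic. CPM use TMM library sizes. DESeq2 1.42.0, sva 3.50.0 and the other alternatives are described in the closing section. The edgeR and DESeq2 tests were first run on simulated counts with known fold changes. Positions and exon lengths (13539 of the genes tested) come from GENCODE M21 on GRCm38, the assembly of mm10, near copies from BLAST 2.17.0, and promoters from RefSeq on GRCm38.p6. Figures were drawn in Python 3.11.15 with matplotlib 3.10.9. All 32 members are named. Of the list of related genes, those that passed in at least 1 contrast and the 4 with the largest averaged transgene change are named, except that 1 gene that passed is not reported here, and other genes were named after their values were seen. The members, gene lists, motifs and tests were chosen with earlier results of these data known. Among 24 pairs of libraries within a genotype, none were copies (chi-square divided by its degrees of freedom at least 6.28).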

Additional observations from a re-analysis of the deposited data

Results flagged for a closer look

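In 10 of 124 groups of 4 libraries, 1 library stood apart from the others by Dixon's test at the 95% level, where chance flags about 1 in 20 groups. WT replicate 4 was high for Hmgcs1 at 20.8 CPM (others 16.9 to 17.4), WT replicate 2 was high for Idi1 at 6.33 CPM (others 3.21 to 3.52), and WT replicate 1 was low for Hsd17b7 at 1.41 CPM (others 6.10 to 6.59). Card9-/- replicate 4, the library of second fewest counts, was high for Sqle at 12.8 CPM (others 5.64 to 6.62) and for Cyp51 at 38.3 CPM (others 21.0 to 22.3), and Card9-/- replicate 3 was low for Fasn at 7.05 CPM (others 13.7 to 14.6). The library 5xFAD replicate 4 was high for Srebf1 at 89.1 CPM (others 39.6 to 47.9), for Insig1 at 24.2 CPM (others 9.18 to 11.0) and for Fads1 at 98.3 CPM (others 36.5 to 40.3). Elovl6 was high in Card9-/- 5xFAD replicate 4, the library of fewest counts, at 3.60 CPM (others 1.14 to 1.39).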

How the results depend on the processing

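Counts of members called for the transgenes with Card9 intact, in Card9-/- mice and averaged over both, in this order, were reported as 1, 1 and 5. Of all genes, 2.09%, 1.97% and 11.3% were called. These shares of all genes moved with the setting and are given in parentheses, in the same order. With DESeq2 size factors the counts were 2, 1 and 5 (2.14%, 2.04% and 11.1%). A floor of 10 counts per library gave 2, 1 and 8 (1.67%, 1.44% and 11.2%). DESeq2 on all libraries gave 3, 3 and 9 (3.24%, 4.82% and 13.2%). An early response covariate gave 3, 1 and 7 (3.14%, 2.55% and 11.2%). For 1 surrogate variable the counts were 8, 6 and 17 (8.62%, 12.5% and 31.5%). For the length slope they were 5, 5 and 14 (6.31%, 5.82% and 24.5%). Without the 3 libraries of fewest counts they were 5, 3 and 15 (12.9%, 10.3% and 33%). The fit of edgeR on only the groups compared gave 3 and 1 (2.22% and 0.708%). The oligodendrocyte covariate left 1, 1 and 1 (1.89%, 1.3% and 8.64%). With it Scd2 (0.75, FDR = 0.101), Pmvk (0.79, FDR = 0.137), Stard4 (0.69, FDR = 0.158) and Dhcr7 (0.55, FDR = 0.296) were no longer called, while the averaged median of the members went from 0.47 to 0.43. No filter gave 1, 1 and 4 (0.694%, 0.618% and 3.57%) and an FDR threshold of 0.05 gave 1, 1 and 4 (1.53%, 1.12% and 6.34%). Leaving out each library in turn gave 1 to 2 (1.1% to 2.6%), 1 to 2 (0.804% to 4.84%) and 4 to 10 (6.39% to 20.5%). The averaged count was 8 without Card9-/- replicate 4 (20.5%), 9 without 5xFAD replicate 4 (12.5%) and 10 without Card9-/- 5xFAD replicate 4 (14.4%). Fads1 was the 1 member ever called as lower, in the averaged contrast alone. It stood at -0.58 with 1 surrogate variable (FDR = 0.059) and -0.78 without the 3 libraries of fewest counts (FDR = 0.0655). Without Card9-/- replicate 4 it was -0.81 (FDR = 0.0806), and without 5xFAD replicate 4 -0.84 (FDR = 0.0621). In every contrast of Card9 genotype and in the interaction the count was 0 under all settings run, but in the averaged Card9 contrast DESeq2 gave an adjusted p for 5 of the members alone (2623 genes), so its 0 covers those 5. Of those 2623 genes 4.04% were called, and elsewhere in these contrasts at most 0.517% of all genes were. The replicate block gave 1, 1 and 5 (2.11%, 2.34% and 12.9%), where Dhcr7 was lost (0.73, FDR = 0.12) and Ebp gained (0.59, FDR = 0.0868). The numbers did not pair the libraries (15 of 24 same-number pairs correlated above 0.1, from -0.71 to 0.73, and 5 of 16 libraries matched their own number best). Dhcr7 was also lost without a filter (FDR = 0.189). DESeq2 size factors moved the averaged median of all genes from -0.15 to -0.08, and the split of calls over all genes from 816 higher and 831 lower to 949 and 668.

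Acaca was called in all 3 transgene contrasts under every setting. Averaged values of small size turned sign. Hmgcs1 was -0.090 and Elovl6 0.20 with the oligodendrocyte covariate, and Acat2 was 0.14 with the length slope. Mvd was 0.0090 with size factors, 0.070 with the floor of 10 counts, 0.0039 in DESeq2, 0.13 with the early response covariate, 0.12 with the surrogate variable and 0.20 with the length slope. Insig2 was -0.16 with the oligodendrocyte covariate and -0.021 without the 3 libraries. Fads2 was 0.051 with size factors, 0.049 without a filter, 0.063 in DESeq2, 0.021 with the block, 0.49 with the oligodendrocyte covariate and 0.32 without the 3 libraries. Leaving out 1 library gave -0.16 to 0.072 for Mvd, -0.080 to 0.20 for Insig2, -0.30 to 0.023 for Elovl6 and -0.15 to 0.20 for Fads2. The cause of these changes was not tested. The low counts of Scd1, Elovl6, Fads2, Hsd17b7 and Fdps limit what could be detected for them.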
